A study of Arabidopsis thaliana with 24 samples.

Results

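HAIRY MERISTEM 1, 2 and 3 (HAM1, AT2G45160; HAM2, AT3G60630; HAM3, AT4G00150) were taken by their gene identifiers from the count table of Arabidopsis thaliana root libraries. They are 3 of the 33602 genes in the table, and all 3 passed the filter on low counts that left 23219 genes to test. HAM proteins are GRAS-family transcriptional regulators that keep meristem cells undifferentiated, in part as partners of WUSCHEL-type homeodomain proteins. Their mRNAs are classical targets of miR171, which pairs with the coding region and directs ARGONAUTE1 to cut there. HYL1 binds double-stranded RNA and helps DCL1 to cut microRNAs out of their primary transcripts.

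The study pulled down ribosomes and the mRNAs on them from roots, through a His- and FLAG-tagged ribosomal protein (HF-RPL18) and an anti-FLAG resin. The tagged protein was made under the 35S promoter or under 1 of 5 layer promoters. These were the promoter of WER for the epidermis, of CO2 for the cortex, of SCR for the endodermis, of SHR for the stele and of ACR4 for the columella. Each of these 6 lines was studied as hyl1 mutant plants and as Col0 wild type plants, with 2 libraries per group and 24 in all. All plants of both genotypes carried the transgene and were sampled 6 days after the move into light, having grown at 22 °C in long days on vertical MS plates, with about 20 plates per library. Neither the hyl1 allele nor the number of transgenic clones per line is stated in the labels. In such a pull-down, fewer cells holding a transcript and less transcript per cell cannot be told apart. The promoters decide which ribosomes are tagged, so a layer is defined only as far as its promoter is active there.

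The sequences of the miR171 family and of its sites in the 3 members are shown because the members were chosen as its targets. All come from RefSeq on the TAIR10.1 assembly, and are written 5′ to 3′ as DNA. The mature microRNAs, with the seed (bases 2 to 8) in capitals, fall into 2 seed groups. The first group is miR171a-3p, from chr3:19073521-19073541 (plus strand), and miR170-3p, from chr5:26411594-26411614 (minus strand). The other is miR171b-3p, from chr1:3961367-3961387 (minus strand), and miR171c-3p, from chr1:22930095-22930115 (minus strand), which share 1 mature sequence.
miR171a-3p: tGATTGAGccgcgccaatatc
miR170-3p: tGATTGAGccgtgtcaatatc
miR171b-3p and miR171c-3p: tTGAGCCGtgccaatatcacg

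The best match to miR171a-3p was the same 21 bases in all 3 members, with 0 mismatches, and lies in the coding sequence of each. In HAM1 it is at chr2:18619128-18619148 (minus strand) and starts at base 885 of a coding sequence of 1923 bases. The HAM2 match is at chr3:22411544-22411564 (minus strand), starting at base 804 of 1872. For HAM3 it is at chr4:58411-58431 (minus strand), starting at base 675 of 1677. Capitals mark the bases opposite the seed of miR171a-3p in the members. HAM4 (AT4G36710), a relative within the HAM family, had 6 mismatches in its best match, at chr4:17306488-17306508 (plus strand), and its mismatched bases are in capitals.
HAM1, HAM2 and HAM3 site: gatattggcgcggCTCAATCa
HAM4 best match: gGtTttATcAcggctTaatca

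The best match to miR171b-3p and miR171c-3p starts 3 bases upstream of that site and had 3 mismatches in each member, capitals below. The same 21 bases that match miR171a-3p had 2 mismatches to miR170-3p, A8G and A10G, counted from the 5′ end of the site, with the base of a perfect complement first. Both set a G opposite a U and can form a G:U pair. The same holds for 1 of the 3 mismatches of each member to miR171b-3p and miR171c-3p. Of the 6 mismatches of HAM4 to miR171a-3p, 2 are of this kind. In a search of all annotated mRNAs of the nuclear chromosomes with up to 3 mismatches, the 3 members were the 3 genes found for miR171a-3p and for miR170-3p. Transcripts annotated as other than mRNA were not searched. For miR171b-3p and miR171c-3p, 4 genes were found, the members and AT3G43156. A match is a description of the sequence and not a measured cut.
HAM1 and HAM2 match to miR171b-3p: AgGgatattggcGcggctcaa
HAM3 match to miR171b-3p: GgGgatattggcGcggctcaa

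Each member is a gene of 1 exon on the minus strand with 0 overlapping annotated genes. HAM1 spans chr2:18617862-18620451, HAM2 spans chr3:22410240-22412663 and HAM3 spans chr4:57140-59495. The longest run of identical bases was 38 between the transcripts of HAM1 and HAM2, and 23 between HAM3 and either of them. Reads that lie wholly within such a run cannot be assigned to 1 member.

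Library totals ran from 2868803 to 13575556 counts. HYL1 itself had 1 to 43 counts per hyl1 library, against 34 to 145 per Col0 library. Its normalised level fell in hyl1 by 1.67 (log2, mean of the 6 lines, SE 0.34) with an adjusted p of 0.00185 by edgeR's quasi-likelihood test, and it was lower in hyl1 in all 6 lines. A gene is called below where its p, adjusted over all tested genes, is under 0.05, and levels are CPM, counts scaled to a common library size with TMM factors. The HYL1 gap was uneven: it averaged 9.21 CPM in hyl1 and 14.0 CPM in Col0 in the SHR line. In the CO2 line it averaged 5.34 CPM in hyl1 and 10.9 CPM in Col0. Averages in the remaining lines ran from 1.62 to 2.99 CPM in hyl1 and from 8.11 to 10.7 CPM in Col0. The SHR and SCR genes were highest in their own lines: SHR averaged 85.5 CPM in the hyl1 SHR line and 82.6 CPM in the Col0 SHR line, and SCR 96.1 CPM in the hyl1 SCR line and 58.2 CPM in the Col0 SCR line. Summed stele markers, SHR among them, averaged 388 CPM in hyl1 SHR and 370 CPM in hyl1 35S. In Col0 they averaged 404 CPM in SHR and 317 CPM in 35S. Summed epidermis markers averaged 178 CPM in hyl1 SHR and 147 CPM in hyl1 35S, and 244 CPM in Col0 SHR and 181 CPM in Col0 35S. Summed endodermis markers were at 2510 and 2221 CPM in the hyl1 SCR libraries, but at 2494 and 601 CPM in the Col0 ones. The CO2 gene was low throughout, at 0.805 CPM in the hyl1 CO2 line and 2.49 CPM in the Col0 CO2 line. Among Col0 lines it was highest in its own, and among hyl1 lines it was highest in SCR, at 1.33 CPM. The 2 cortex markers summed to at most 4.19 CPM in any library. The WER gene averaged 11.4 CPM in the hyl1 WER line and 32.1 CPM in the Col0 WER line, below its 42.5 CPM in the Col0 ACR4 line. The pair of hyl1 WER libraries stood apart, with a correlation of 0.752 between them, against 0.926 to 0.975 in the other 11 groups. They also had the fewest genes with a read, 25475 in replicate 1 and 22330 in replicate 2, against 26365 to 30265 in all other libraries. Their totals were among the largest, at 12046376 and 13575556 counts. HYL1 had 1 read in replicate 1 and 39 in replicate 2.

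Of the 4 precursor genes of the miR171 family, whose primary transcripts are normally short-lived, MIR171b and MIR171c carried more reads in hyl1 than in Col0. MIR171c (AT1G62035) had 336 reads over the 12 hyl1 libraries and 8 over the 12 Col0 libraries, and MIR171b (AT1G11735) had 108 over the hyl1 libraries and 2 over the Col0 libraries. Both rose in hyl1 as the mean of the 6 lines (adjusted p = 0.000134 for MIR171c and 0.00134 for MIR171b), in a comparison that called 19.8% of all tested genes, 7.84% higher and 12% lower. No fold is given, since many Col0 groups had 0 reads. MIR171a had 2 reads over the hyl1 libraries and 5 over the Col0 libraries, and MIR170 had 2 over the hyl1 libraries and 1 over the Col0 libraries, so neither was tested.

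By line, MIR171c had most reads in the SCR line, with 54 and 107 in the hyl1 libraries, against 0 and 1 in the Col0 libraries. In the CO2 line it had 45 and 32 in hyl1, against 1 and 0 in Col0. The groups did not overlap in either line, nor in the ACR4 line, with 20 and 9 in hyl1 and 1 and 2 in Col0. They also did not overlap in the 35S line, with 14 and 6 in hyl1 and 3 and 0 in Col0. The same held in the SHR line, with 4 and 5 in hyl1 and 0 in both Col0 libraries. Of all tested genes, 44% did not overlap in SCR, 39.6% in CO2, 66.1% in ACR4, 39.2% in 35S and 36% in SHR. In the WER line the hyl1 libraries differed from each other, with 0 and 40 reads of MIR171c and 0 and 35 reads of MIR171b, and both Col0 libraries had 0. A count of 0 allows up to 3 reads. MIR171c passed the test by line in SCR (adjusted p = 0.0462, with 1.89% of genes called) and WER (adjusted p = 0.0127, with 39.1% called), and MIR171b in WER (adjusted p = 0.0177). Without the 4 WER libraries, the mean effect kept its call for MIR171c (adjusted p = 3.69e-06) and for MIR171b (adjusted p = 0.000453). Without hyl1 WER replicate 2, when both WER groups were at 0, the adjusted p was 0.9999 for both.

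**Figure D1:**
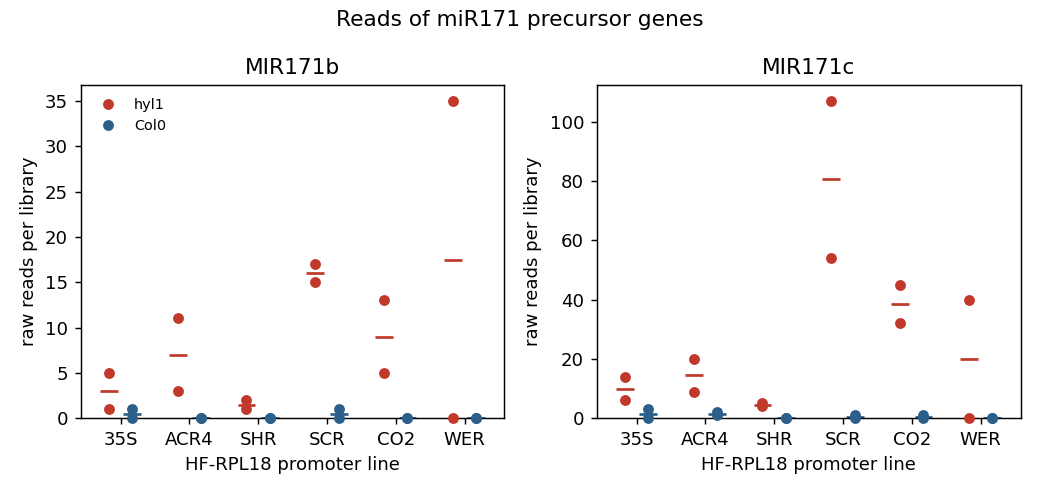
Raw reads of MIR171b and MIR171c in each library (points; bars are means of 2 libraries), with hyl1 left of Col0 in each HF-RPL18 line. The hyl1 libraries reach 35 reads of MIR171b and 107 of MIR171c, the Col0 libraries no more than 1 and 3, and WER replicate 1 of hyl1 is at 0 for both.

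The mRNAs of the 3 members did not pass the test for a difference between hyl1 and Col0 as the mean of the 6 lines. The log2 fold change, hyl1 over Col0, was −0.09 for HAM1 (SE 0.10, 95% interval −0.29 to 0.12, adjusted p = 0.597). It was −0.31 for HAM2 (SE 0.18, 95% interval −0.68 to 0.06, adjusted p = 0.246). For HAM3 it was 0.28 (SE 0.16, 95% interval −0.05 to 0.61, adjusted p = 0.238). None of the 3 was called in this comparison, in which 19.8% of tested genes were. The median of all tested genes was −0.07. The intervals leave room for a HAM3 rise of up to 0.61 and end at 0.12 for HAM1 and 0.06 for HAM2, all on the log2 scale. Other conserved microRNA targets, measured in the same fit, had a median of 0.77, and 23 of 45 tested members of that list rose and 3 fell. Examples are the miR159 targets MYB33, at 2.90 (SE 0.11, adjusted p = 1.78e-11), and MYB65, at 2.82 (SE 0.18, adjusted p = 9.16e-09), both transcription factors of the GAMYB type.

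HAM1 overlapped between the genotypes in all 6 lines. In the 35S line it was at 29.8 and 35.6 CPM in the hyl1 libraries and at 26.7 and 29.9 CPM in the Col0 libraries. The ACR4 line had 33.4 and 37.5 CPM in hyl1, against 55.0 and 37.1 CPM in Col0. The SHR line had 25.7 and 34.7 CPM in hyl1, against 30.1 and 31.6 CPM in Col0. These groups overlap, and the hyl1 libraries of the SHR line lie on both sides of the Col0 pair. In the SCR line HAM1 was at 43.1 and 40.0 CPM in hyl1, against 51.7 and 41.3 CPM in Col0. The CO2 line had 37.7 and 30.0 CPM in hyl1, against 34.7 and 36.9 CPM in Col0. The WER line had the highest average in both genotypes, at 58.1 and 48.5 CPM in hyl1 and 56.8 and 54.8 CPM in Col0. The log2 fold changes of HAM1 by line ran from −0.38 (ACR4, SE 0.24) to 0.21 (35S, SE 0.24).

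HAM2 did not overlap between the genotypes in 5 of the 6 lines, but not in 1 direction, and passed the test in 1 of them. Of all tested genes, 9.42% did not overlap in at least 5 lines, and by line between 36% (SHR) and 66.1% (ACR4) did not overlap. By the test, hyl1 differed from Col0 for 39.1% of tested genes in WER, 14.7% in ACR4, 1.89% in SCR, 0.146% in CO2, 0.0991% in 35S and 0.0818% in SHR. HAM2 was higher in both hyl1 libraries of the 35S line, at 37.9 and 38.6 CPM, against 27.0 and 27.9 CPM in Col0. It overlapped in the SHR line, with 45.3 and 32.1 CPM in hyl1 and 38.4 and 23.3 CPM in Col0. Both hyl1 libraries were below both Col0 libraries in the remaining 4 lines. HAM2 was at 27.5 and 25.7 CPM in the hyl1 ACR4 libraries, against 33.1 and 34.7 CPM in Col0. It was at 32.6 and 29.3 CPM in the hyl1 SCR libraries, against 38.3 and 34.6 CPM in Col0. The CO2 line had 23.6 and 27.8 CPM in hyl1, against 30.9 and 39.7 CPM in Col0. The WER line showed the widest gap, with 28.9 and 6.00 CPM in hyl1, against 58.7 and 48.5 CPM in Col0.

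In the WER line the log2 level of HAM2 fell by 1.62 in hyl1 (SE 0.44, adjusted p = 0.00751, edgeR's quasi-likelihood test). This line, which called 23.3% of tested genes as lower, held the only call of a member among the 6 lines. The median of all genes there was −0.24. The hyl1 replicates disagree in size: without replicate 1 the value was −3.16 and without replicate 2 it was −0.83. Most of the 24 fits that left out 1 library dropped a library of another line, and the call was kept in all 24. In a fit of the WER libraries alone it was lost (−1.43, adjusted p = 0.387). The effect in WER was lower than the mean of the 5 other lines by a log2 difference of −1.57 (SE 0.48, adjusted p = 0.0204), where 28.5% of genes were called; it missed the threshold without hyl1 WER replicate 2 (−0.80, adjusted p = 0.0587) and without Col0 WER replicate 1 (−1.44, adjusted p = 0.0764). The general test of differences among the 6 lines did not call HAM2 (adjusted p = 0.151, with 17.8% of genes called), except without hyl1 WER replicate 1 (adjusted p = 2.52e-05). The mean effect of HAM2 over the 6 lines was also called without that library (−0.56, adjusted p = 0.00026), and was −0.04 without the 4 WER libraries (adjusted p = 0.870).

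Markers of other layers moved with genotype in the WER line. The 11 epidermis and root hair markers summed to 326 and 358 CPM in the hyl1 WER libraries, against 719 and 734 CPM in Col0. The 10 stele markers summed to 261 and 410 CPM in hyl1, against 125 and 153 CPM in Col0, and 7 of the 10 passed the test as higher, as did 15.8% of all tested genes. The 6 columella and root cap markers summed to 90.9 and 100.7 CPM in the hyl1 WER libraries, against 344 and 460 CPM in Col0, and the 10 endodermis markers to 192 and 337 CPM in hyl1, against 66.7 and 146 CPM in Col0. Of the endodermis markers 7 of 10 were called higher, and 4 of the 6 columella markers and 3 of the 11 epidermis markers were called lower, beside 23.3% of all tested genes; 1 epidermis marker was called higher. In each hyl1 WER library, and in 1 of the Col0 ones, 1 of the 2 cortex markers was at 0. Dominant transcripts are here the 10 with the largest mean excess, in CPM, of the layer lines over the 35S line in these data. They held 24.7% and 30.5% of the counts in the hyl1 WER libraries, against 3.57% and 4.03% in Col0. In the 35S line they averaged 1.07% of counts in hyl1 and 0.654% in Col0. In a refit without these 10 transcripts, HAM2 in the WER line was −1.62 (adjusted p = 0.00723, edgeR's quasi-likelihood test). The part of the markers in the HAM2 difference, and any other part of these transcripts, was not tested.

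HAM3 had a positive fold change in 5 of 6 lines, none of which passed the test. In the 35S line it was at 21.0 and 19.7 CPM in hyl1, against 14.0 and 13.8 CPM in Col0. In the SHR line it was at 25.1 and 29.3 CPM in hyl1, against 10.8 and 24.1 CPM in Col0. The genotypes did not overlap in these 2 lines, where 0.0991% (35S) and 0.0818% (SHR) of tested genes were called. Of all tested genes, 84% did not overlap in at least 2 lines. HAM3 was at 20.7 and 23.0 CPM in the hyl1 ACR4 libraries, against 22.3 and 11.8 CPM in Col0. The SCR line had 22.4 and 14.6 CPM in hyl1, against 13.2 and 18.6 CPM in Col0. The CO2 line had 23.3 and 18.3 CPM in hyl1, against 14.5 and 19.2 CPM in Col0. The groups overlap in all of these, as they do in the WER line, the only one in which HAM3 averaged lower in hyl1, at 43.4 and 28.4 CPM, against 56.9 and 37.8 CPM in Col0. The log2 fold changes ran from −0.40 (WER, SE 0.37) to 0.63 (SHR, SE 0.39). Without the WER libraries the mean effect was 0.42 (SE 0.15, adjusted p = 0.0809), short of the threshold.

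**Figure D2:**
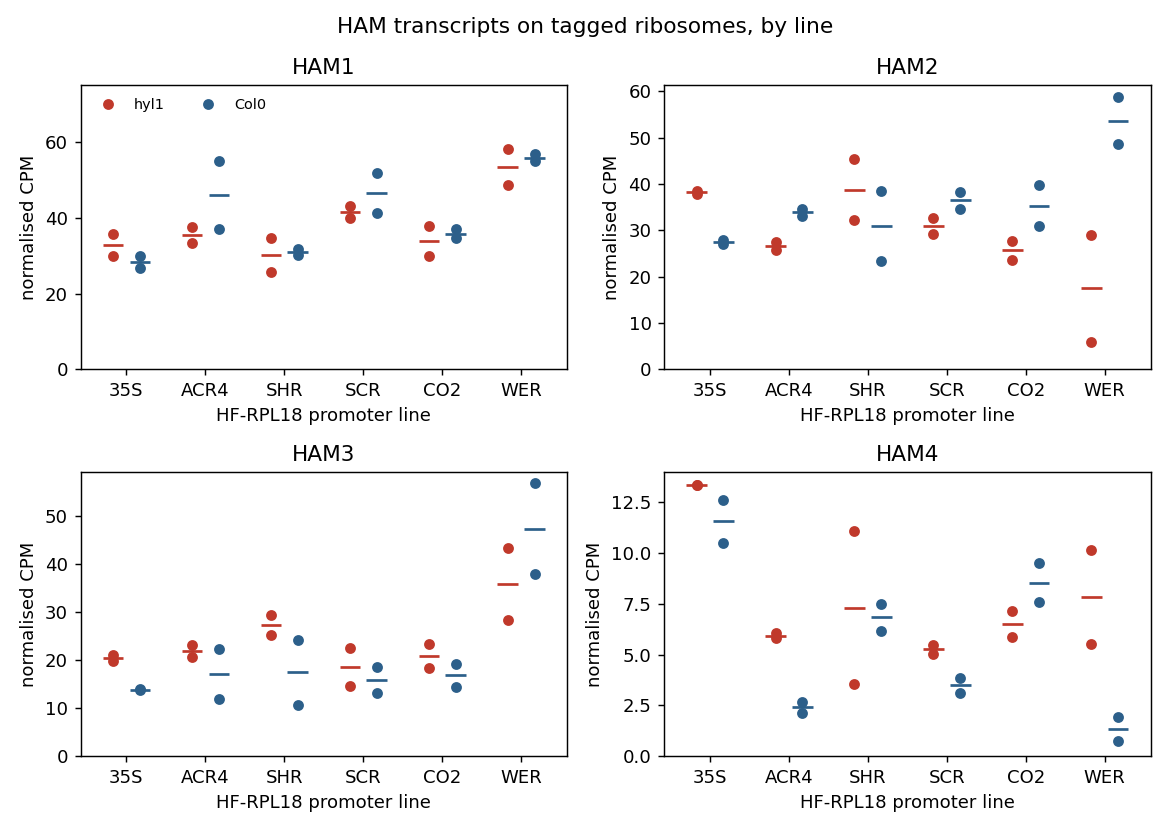
Normalised CPM of HAM1, HAM2, HAM3 and HAM4 in each library (points; bars are means of 2 libraries), with hyl1 left of Col0 in each HF-RPL18 line. HAM1 overlaps between genotypes in all 6 lines, HAM2 is at 6.00 and 28.9 CPM in the hyl1 WER libraries against 48.5 and 58.7 CPM in Col0, and HAM3 peaks in the WER line.

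**Figure D3:**
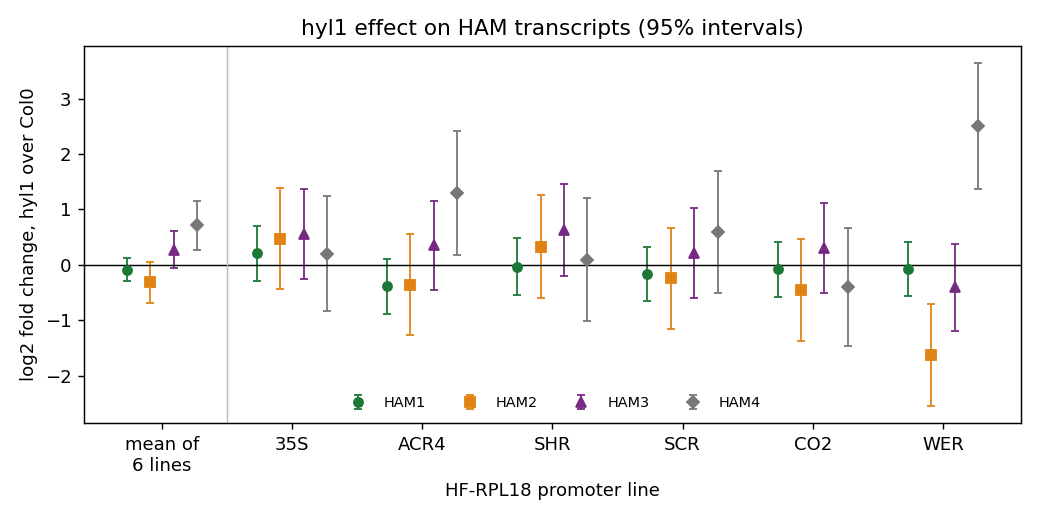
Log2 fold change, hyl1 over Col0, as the mean of 6 lines and in each line, with 95% intervals from the edgeR fit of all 24 libraries. The intervals of HAM1, HAM2 and HAM3 include 0 everywhere except for HAM2 in the WER line (−1.62), while HAM4 is above 0 in the mean (0.72) and in the ACR4 and WER lines.

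HAM4, whose best match to miR171a-3p has 6 mismatches, was compared as the family member without the site. Its log2 level rose by 0.72 as the mean of the 6 lines (SE 0.21, adjusted p = 0.0219). In the ACR4 line it was at 6.08 and 5.81 CPM in hyl1, against 2.12 and 2.69 CPM in Col0. The WER line had 5.55 and 10.1 CPM in hyl1 (51 and 98 reads). Its Col0 libraries had 0.758 and 1.94 CPM (7 and 23 reads). Neither pair of groups overlaps. HAM4 did not overlap in 5 of the 6 lines, but in CO2 it was lower in hyl1, at 7.13 and 5.86 CPM, against 9.51 and 7.59 CPM in Col0. Of all tested genes, 66.1% did not overlap in ACR4, 54.5% in WER and 9.42% in at least 5 lines. The WER difference passed the test (2.50, SE 0.54, adjusted p = 0.00151), in a line where 15.8% of genes were called higher. It was 2.85 without hyl1 WER replicate 1 (adjusted p = 0.000114) and 2.05 without replicate 2 (adjusted p = 0.00553), and its call was lost in a fit of the WER libraries alone (2.73, adjusted p = 0.295). The ACR4 difference did not pass (1.30, SE 0.53, adjusted p = 0.118), in a line that called 6.29% of genes higher and 8.42% lower. It passed in a fit of the ACR4 libraries alone (1.36, adjusted p = 0.0181), in DESeq2 (1.39, adjusted p = 0.0498), without hyl1 WER replicate 1 (1.30, adjusted p = 0.0471) and without hyl1 WER replicate 2 (1.35, adjusted p = 0.0405). The HAM4 mean lost its call without hyl1 SHR replicate 2 (0.55, adjusted p = 0.0735) and without the WER libraries (0.37, adjusted p = 0.207), and was −0.025 over the 35S, SHR and CO2 lines alone. In the ACR4 line the summed stele markers averaged 230 CPM in hyl1 and 138 CPM in Col0, and 4 of 10 were called higher. The endodermis markers averaged 227.2 CPM in hyl1 and 55.9 CPM in Col0, with 7 of 10 called higher, and the epidermis markers 194 CPM in hyl1 and 426 CPM in Col0, with 4 of 11 called lower. The columella markers summed to 1153 CPM in hyl1 and 556 CPM in Col0, although 4 of the 6 were called lower. The 1 called higher, named here after its values were seen, was CR4, the ACR4 gene itself, at 1102 CPM in hyl1 and 168 CPM in Col0. The 2 cortex markers averaged 1.87 CPM in hyl1 and 2.28 CPM in Col0, neither called, and the 10 dominant transcripts held 35.2% of counts in hyl1 and 8.71% in Col0. In a refit without these 10 transcripts, HAM4 was 0.72 in the mean (adjusted p = 0.0223, edgeR's quasi-likelihood test). In the WER line that refit gave 2.50 (adjusted p = 0.00155, same test). The part of the markers in the HAM4 values, and any other part of these transcripts, was not tested.

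Ratios of reads between members within a library do not depend on how libraries are scaled. The log2 ratio of HAM2 to HAM3 averaged 0.23 in hyl1 and 0.90 in Col0, a difference of −0.68 (exact permutation test within lines, two-sided, p = 0.00763, adjusted p = 0.0387 over 6 pairs), and it was lower in hyl1 in 6 of 6 lines. The log2 ratio of HAM1 to HAM3 averaged 0.67 in hyl1 and 1.06 in Col0, a difference of −0.39 (exact permutation p = 0.0172, adjusted p = 0.0387), and it was lower in hyl1 in 5 of 6 lines, the exception being WER. The HAM1 to HAM2 ratio did not pass (0.44 in hyl1, 0.16 in Col0, exact permutation adjusted p = 0.355). The log2 ratio of HAM1 to HAM4 averaged 2.37 in hyl1 and 3.15 in Col0, a difference of −0.78 (exact permutation p = 0.0193, adjusted p = 0.0387), lower in hyl1 in 4 of 6 lines, and its call was kept in 9 of 24 analyses that left out 1 library. Without the WER libraries it was −0.41 (exact permutation adjusted p = 0.230), and over the 35S, SHR and CO2 lines it was 0.12. The HAM2 to HAM4 ratio averaged 1.93 in hyl1 and 2.99 in Col0 and did not pass (exact permutation adjusted p = 0.0605), nor did HAM3 to HAM4, with 1.70 in hyl1 and 2.09 in Col0 (exact permutation adjusted p = 0.355). The size of the difference between lines was uneven: for HAM2 to HAM3 it ran from −0.08 in the 35S line to −1.61 in the WER line, and for HAM1 to HAM3 from −0.79 in the SHR line to 0.33 in the WER line. The calls were fragile. The HAM2 to HAM3 call was kept in 14 of 24 analyses that left out 1 library and the HAM1 to HAM3 call in 12 of 24, with differences from −0.83 to −0.52 for HAM2 to HAM3 and from −0.48 to −0.30 for HAM1 to HAM3. Without the 4 WER libraries the HAM2 to HAM3 difference was −0.49 (exact permutation adjusted p = 0.118).

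**Figure D4:**
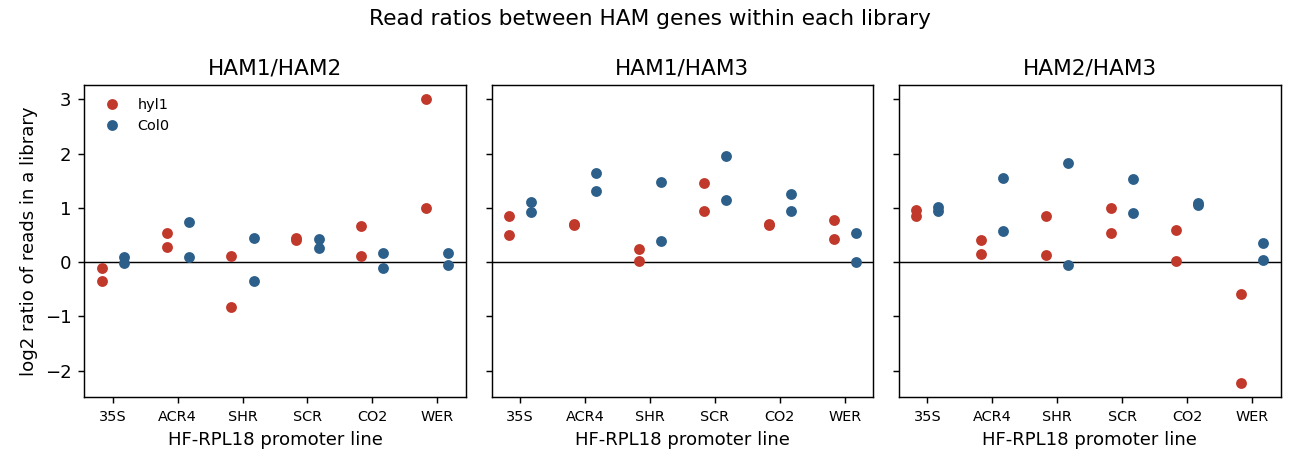
Log2 ratio of reads between pairs of members within each library (points), with hyl1 left of Col0 in each HF-RPL18 line. The HAM2/HAM3 ratio averages 0.23 in hyl1 and 0.90 in Col0 and is lowest in the hyl1 WER libraries, where HAM1/HAM2 is highest.

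Levels in the layer lines were compared within each genotype. In Col0, HAM3 was highest in the WER line, at 56.9 and 37.8 CPM, and its averages in the other lines ran from 17.4 CPM (SHR) down to 13.9 CPM (35S). The WER line exceeded the mean of the 4 other layer lines by a log2 difference of 1.49 (SE 0.27, adjusted p = 0.000461, edgeR's quasi-likelihood test), in a comparison that called 26.7% of tested genes, 14.9% higher. It kept that call in 24 of 24 fits that left out 1 library, with values from 1.17 to 1.75. Many of these fits left out a library outside the Col0 layer lines. In the order of levels WER differed from the next line, SHR, by 1.43 (SE 0.39, adjusted p = 0.00988, with 28.8% of genes called), and the other neighbours in the order of HAM3, which runs SHR, ACR4, CO2, SCR, 35S, did not differ beyond their spread. In hyl1 the same comparison gave 0.71 (SE 0.28, adjusted p = 0.0576), and it ran from 0.37 without hyl1 WER replicate 1 (adjusted p = 0.371) to 0.996 without hyl1 WER replicate 2 (adjusted p = 0.0238). It was called in 4 of 24 fits that left out 1 library and without the filter on low counts (0.88, adjusted p = 0.0256). The difference of the hyl1 effect between WER and the other lines was not called for HAM3 (−0.81, SE 0.41, adjusted p = 0.150), except without hyl1 WER replicate 1 (−1.16, adjusted p = 0.0368).

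HAM1 showed a narrower range. Its Col0 averages ran from 55.8 CPM in the WER line through 46.5 CPM (SCR), 46.1 CPM (ACR4), 35.8 CPM (CO2) and 30.9 CPM (SHR) to 28.3 CPM (35S), and no neighbours in that order differed beyond their spread. The WER line was 0.51 above the mean of the 4 other layer lines in Col0 (SE 0.18, adjusted p = 0.0417) and 0.61 above it in hyl1 (SE 0.18, adjusted p = 0.0129, with 36.8% of genes called). The Col0 call was kept in only 5 of 24 fits that left out 1 library, and the hyl1 call in 23 of 24, being lost without hyl1 WER replicate 1 (0.46, adjusted p = 0.0860). HAM1 was lower in the whole-root 35S line than in the mean of the 5 layer lines in Col0 (−0.57, SE 0.19, adjusted p = 0.0422, with 19% of genes called), a call kept in 3 of 24 such fits, and in hyl1 the same comparison gave −0.22 (adjusted p = 0.475, with 18.9% of genes called).

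HAM2 averaged 53.6 CPM in the Col0 WER line and 27.5 to 36.5 CPM in the other Col0 lines, and none of the 15 pairs of Col0 lines was called, where each pair called between 1.83% and 30.6% of tested genes. The WER line was 0.65 above the mean of the 4 other layer lines in Col0 (SE 0.32, adjusted p = 0.151) and −0.79 from it in hyl1 (SE 0.36, adjusted p = 0.0970). The hyl1 value rests on its 2 WER libraries, being −2.33 without replicate 1 (adjusted p = 4.88e-06) and −0.05 without replicate 2 (adjusted p = 0.909). Leaving out either hyl1 WER library brought the Col0 value past the threshold, at 0.65 without replicate 1 (adjusted p = 0.00609) and 0.62 without replicate 2 (adjusted p = 0.00803). The libraries of the WER and SHR lines each carry a run of library numbers of their own, apart from those of the 4 remaining lines. For all 3 members, the line and the run of numbers cannot be told apart in comparisons of WER or SHR with other lines, while both genotypes of a line fall within the same run.

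**Figure D5:**
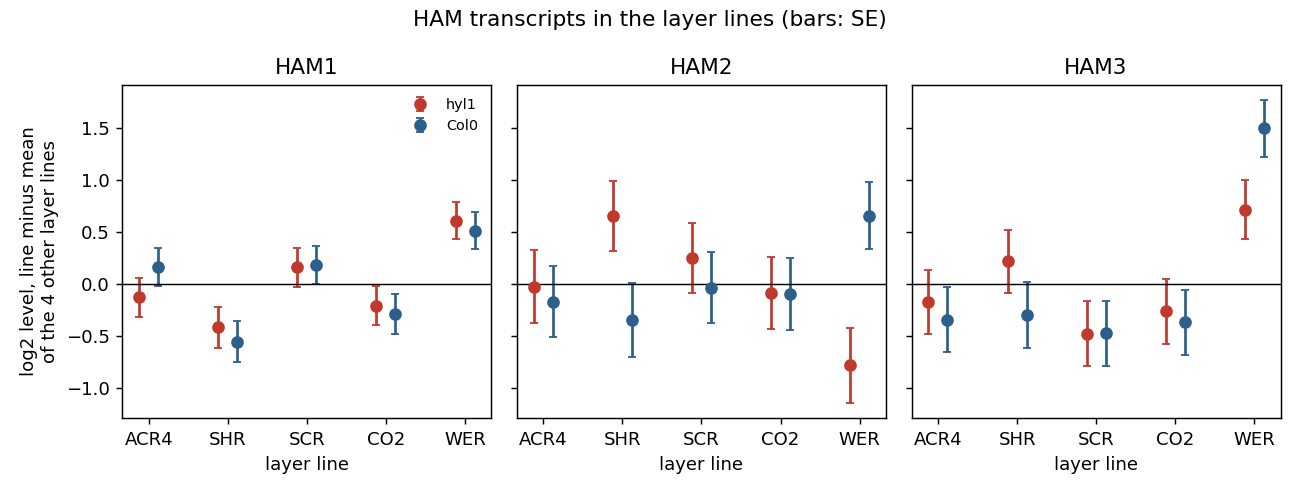
Difference on the log2 scale between each layer line and the mean of the 4 other layer lines, for HAM1, HAM2 and HAM3 (bars are SE), with hyl1 left of Col0. HAM3 in the Col0 WER line stands at 1.49, and HAM2 in the WER line lies at −0.79 in hyl1 and 0.65 in Col0.

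Per transcript length, the medians of the members over the lines ranked alike in both genotypes. The median over the 6 lines was 13.4 CPM per kb in hyl1 and 15.8 CPM per kb in Col0 for HAM1, 11.9 in hyl1 and 14.3 in Col0 for HAM2, and 9.06 in hyl1 and 7.19 in Col0 for HAM3. HAM4 had the lowest median, at 3.65 CPM per kb in hyl1 and 2.73 CPM per kb in Col0. By line the order changed. In hyl1, HAM2 averaged above HAM1 in the 35S line (15.8 against 12.6 CPM per kb) and the SHR line (16.0 against 11.65). HAM3 was above HAM2 in the hyl1 WER line (15.2 against 7.20). In the Col0 35S line HAM4 was above HAM3 (6.11 against 5.89). Across the 24 libraries, the Pearson r of log2 CPM was 0.53 between HAM1 and HAM3, 0.04 between HAM2 and HAM3 and −0.00 between HAM1 and HAM2, as a description of libraries that share lines and genotypes. HAM2 stood at 6.00 CPM in hyl1 WER replicate 2, and its next lowest level was 23.3 CPM. The r values of HAM2 may rest on that library and were not computed without it.

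Among 15661 genes with a mean log2 CPM of at least 2, those most like HAM1 over the 24 libraries were ACX1 (r = 0.886), a peroxisomal acyl-CoA oxidase, CPK1 (r = 0.882), a calcium-dependent protein kinase, and AT4G39050 (r = 0.859). Those most like HAM2 were AT4G32680 (r = 0.923), AT1G44760 (r = 0.903) and AT4G13370 (r = 0.896). For HAM3 they were AT2G01021 (r = 0.854), AT2G43150 (r = 0.808) and AT1G11940 (r = 0.799). None of these r values was computed without hyl1 WER replicate 2, where HAM2 was at its lowest, 6.00 CPM.

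Of the other GRAS genes, 27 of 28 were tested and 3 rose and 3 fell in hyl1 as the mean of the 6 lines, with a median of 0.05, beside 7.84% of all tested genes called higher and 12% lower. AT4G08250 rose by 2.35 (SE 0.37, adjusted p = 0.000207) and AT3G13840 by 2.17 (SE 0.45, adjusted p = 0.00233), the call of AT3G13840 being lost without hyl1 WER replicate 1 (adjusted p = 0.9999). SCL3, which promotes gibberellin responses in the root endodermis, was 0.66 higher (SE 0.21, adjusted p = 0.0304), and SCL13, which acts in light signalling, was 0.50 lower (−0.50, SE 0.17, adjusted p = 0.0427); both calls were lost without the WER libraries (adjusted p = 0.0764 for SCL3 and 0.0804 for SCL13). With 1 library left out, the call was kept in 13 of 24 fits for SCL3 and in 5 of 24 for SCL13, and that of SCL13 was also lost under RLE scaling (adjusted p = 0.0518) and without the filter on low counts (adjusted p = 0.0592).

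Among 8 genes reported as HAM partners or targets, 6 were tested, 1 rose and 1 fell, with a median of 0.44, in the comparison that called 19.8% of tested genes. WOX4, a homeodomain regulator of vascular stem cells whose protein binds HAM proteins, rose by 1.65 (SE 0.25, adjusted p = 0.000179), and was at 0.16 over the 35S, SHR and CO2 lines alone (adjusted p = 0.792). RGA1, a DELLA repressor of gibberellin responses that also counts among the GRAS genes above, fell by 0.26 (adjusted p = 0.0230), and was at −0.01 without the WER libraries (adjusted p = 0.983). WUS and CLV3 did not pass the filter on low counts. Of 6 genes of the microRNA machinery, 1 rose and 1 fell in the same comparison, with a median of 0.23. DCL1, the nuclease that HYL1 assists and itself a microRNA target, rose by 1.11 (SE 0.16, adjusted p = 8.17e-05), and the gene that fell was HYL1.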

How the data were processed

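RNA from anti-FLAG pull-downs was counted in 24 root libraries. The authors deposited raw counts of reads per gene in 1 table. Per the submitters' processing notes, featureCounts of the Subread package did the counting, on the TAIR10 build, and the tools included Bowtie2 2.2.1.0, TopHat2 2.0.11 and CASAVA 1.8.2. How the counter dealt with strand and with multiply mapped reads, and its version, is not given in the sources used here, and close copies may share reads. Groups and replicate numbers came from the sample titles. No label says that replicates came from separate cultures. The p-values therefore reflect the spread between these libraries, which may be technical.

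All 24 libraries entered 1 quasi-likelihood fit in edgeR 4.0.16 (R 4.3.3) with 12 groups and TMM scaling. The filterByExpr settings were 10 for the smallest count and 15 for the smallest total. The p-values were adjusted by the Benjamini-Hochberg method across the 23219 genes tested, and a gene under 0.05 was called. Normalised CPM used TMM-scaled library sizes. For read ratios, with 0.5 added to each count, genotype labels were permuted within lines in all 46656 ways, and adjusted over 6 pairs (3 members and HAM4). DESeq2 1.42.0 was an alternative. The test was checked on simulated counts. Intervals and floors cover counting error or the spread of these libraries only.

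Symbols came from the RefSeq TAIR10.1 table, which held 32835 of 33602 identifiers (97.7%). Sequences and coordinates were matched on that assembly (Python 3.11.15) and not converted. The members and lists were chosen with earlier results of these data known. Named were the members, HAM4, HYL1, the miR171 family genes, up to 4 called genes per list with the largest change (2 for other microRNA targets, none for markers), and the 3 genes most like each member.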

Additional observations from a re-analysis of the deposited data

Results flagged for a closer look

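The effect of hyl1 on 2 HAM genes differed in the WER line from that in the 5 other lines, in a comparison that called 28.5% of all tested genes. The general F test of differences among the 6 lines (edgeR's quasi-likelihood test) called neither gene, where 17.8% of genes were called. Its adjusted p was 0.151 for HAM2 and 0.0679 for HAM4. In DESeq2 that general test called HAM4 (adjusted p = 0.00352). For HAM2 the log2 fold change in WER minus the mean of the others was −1.57 (SE 0.48, adjusted p = 0.0204, edgeR's quasi-likelihood test), and leaving out 1 library moved it between −3.11 and −0.80, with the call kept in 22 of 24 fits. For HAM4 the difference was 2.14 (SE 0.58, adjusted p = 0.0107), between 1.63 and 2.98 with 1 library left out and called in 23 of 24 fits. The Col0 WER libraries held only 7 and 23 reads of HAM4. The hyl1 WER libraries correlate least of all replicate pairs (0.752), and their stele, epidermis and columella markers differ from those of Col0 WER, as given above. The part of these in the HAM2 and HAM4 values was not tested.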

How the results depend on the processing

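Over HAM1, HAM2 and HAM3, 2340 refits of 78 results were made: 2184 kept their direction and side of the threshold, 51 lost a call, 20 gained one and 85 changed sign, all 85 without a call before or after. Of these, 50 are differences of the hyl1 effect between lines, of which only WER minus the others is reported. Of 636 refits of hyl1 minus Col0, 619 kept both, and 15 changed sign. For comparisons of 1 line or within 1 genotype, many fits that left out 1 library dropped one outside the groups compared. Such a fit leaves the compared libraries unchanged and moves a result only through the shared spread, scaling, filter and adjustment. HAM2 in the WER line was −1.43 in a fit of that line alone. The HAM1 excess in the Col0 WER line lost its call under RLE scaling (0.42), without a filter (0.50), in a fit of 1 genotype (0.47) and in DESeq2 (0.42). The HAM1 deficit in the Col0 35S line lost it under RLE scaling (−0.49), without a filter (−0.39) and with a replicate block (−0.57). The HAM1/HAM3 ratio lost it over the 35S, SHR and CO2 lines (−0.51) and with the block (−0.39). The HAM2/HAM3 ratio lost it without the WER libraries (−0.49) and over the 35S, SHR and CO2 lines (−0.41). Over these 3 lines the mean hyl1 effect changed sign for HAM1 (0.040), HAM2 (0.13), HAM4 (−0.025) and RGA1 (0.21), as did the ratio differences of HAM1/HAM2 (−0.10), HAM1/HAM4 (0.12), HAM2/HAM4 (0.22) and HAM3/HAM4 (0.63). Without the WER libraries HAM1/HAM2 (−0.045) and HAM3/HAM4 (0.13) did so. HAM1 in the WER line turned positive under RLE scaling (0.027), in DESeq2 (0.027), without a filter (0.12) and in a fit of that line alone (0.13), and HAM4 in the SHR line was −0.071 with the block. With only the 4 lines of 1 run of library numbers, layer differences turned positive for HAM3 in ACR4 (0.16 in hyl1, 0.028 in Col0) and CO2 (0.063 in hyl1, 0.042 in Col0), and for HAM2 in Col0 SCR (0.10) and CO2 (0.020). The causes were not tested.

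With 1 library left out, HAM1 in Col0 ran from −0.65 to −0.45 for 35S, from −0.63 to −0.49 for SHR and from 0.44 to 0.58 for WER. HAM2 ran from −0.56 to −0.17 in the mean hyl1 effect, from 0.51 to 0.78 for the Col0 WER line, and from 2.06 to 17.6 in the F of the difference between lines. The HAM1/HAM3 difference ran from −0.48 to −0.30 and HAM2/HAM3 from −0.83 to −0.52. By line, hyl1 minus Col0 changed sign for HAM1 in SHR (−0.27 to 0.18), SCR (−0.31 to 0.012), CO2 (−0.25 to 0.085) and WER (−0.21 to 0.11), for HAM3 in ACR4 (−0.030 to 0.88) and SCR (−0.11 to 0.50), and for HAM4 in SHR (−0.94 to 0.70). The HAM1 effect in WER minus the other lines ran from −0.12 to 0.19. Layer differences changed sign in hyl1 for HAM2 in ACR4 (−0.20 to 0.36) and CO2 (−0.27 to 0.30), and in Col0 for HAM1 in ACR4 (−0.14 to 0.43), HAM2 in SCR (−0.11 to 0.065) and CO2 (−0.30 to 0.061), and HAM3 in ACR4 (−0.86 to 0.049) and SHR (−1.01 to 0.16). The number of genes called in the mean hyl1 effect was 4607 and ran from 3687 to 9487, and was 2738 without the WER libraries and 775 over the 35S, SHR and CO2 lines.

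Replicate numbers did not pair the libraries: deviations of same-numbered hyl1 and Col0 libraries correlated between −0.09 and 0.07 over the 6 lines. With the replicate block, HAM1 was −0.08, HAM2 −0.37 and HAM3 0.30 in the mean hyl1 effect, none called. With 2 libraries per group, the by-line intervals of HAM2 and HAM3 span more than 1 unit of log2. MIR171b could not be tested over the 35S, SHR and CO2 lines.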
